A study of Mus musculus with 3 samples.

Results

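Keratins are the intermediate filament proteins of epithelia, and the family is described here in mouse back skin across skin cell types and 3 single-cell RNA libraries. Members were all symbols of the deposited gene table made of Krt, a number and at most 1 further letter, which gave 53 keratins among 32285 genes. Of these, 34 had at least 50 UMIs (unique molecular identifiers, 1 per captured RNA molecule) over all deposited barcodes and are described by level, 19 of type I and 15 of type II. The other 19 had fewer UMIs, and Krt40 had 0. Just inside the limit were Krt33a with 52 and Krt12 with 58 UMIs, and just outside it Krt90 with 46 and Krt35 with 36. In the GENCODE M21 annotation of GRCm38 the described type I members lie on chromosome 11, except Krt18 on chromosome 15, and the type II members lie on chromosome 15.

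A keratin filament is built from pairs of 1 type I (acidic) and 1 type II (basic) chain, so a keratin-forming cell needs both types. In skin the pair changes with position: Krt5 and Krt14 mark the basal layer, Krt1 and Krt10 the suprabasal layers, and other members mark the bulge (the stem cell niche of the hair follicle), the upper follicle, the root sheaths and the hair shaft. Krt6a, Krt16 and Krt17 are known as wound or stress keratins of the epidermis and are also made by normal follicles.

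The study compared back skin of C57BL/6 mice that differed in the mechanosensitive channel gene Piezo1. The control library had the genotype K5-Cre-er/Piezo1fl/+/Tdfl/+ and was taken at P62. The 2-week knockout library was K5-Cre-er/Piezo1fl/fl/Tdfl/+, also at P62, and the 3-week knockout library was K5-Cre-er/Piezo1fl/fl/Tdfl/fl at P71. All 3 groups carried the Cre transgene and received tamoxifen from P48 to P52. Cre was driven by the keratin 5 promoter, so a gene of this family set where recombination could occur, and the control kept 1 unfloxed Piezo1 allele. Each group was 1 library, and the number of animals in it is not stated in the sources used here. Age, time since tamoxifen, Td alleles and the library itself differed from control in the 3-week group and cannot be told apart there. With 1 library per group there was no replicate check of any difference. No test between groups was therefore made, and every interval below is an exact 95% interval that covers counting error only.

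After filtering, 4912, 9585 and 9599 cells of the control, 2-week and 3-week libraries remained (values of 3 libraries are given in this order throughout), with medians of 9989, 7506 and 8768 UMIs. Total counts per library lay between 62967542 and 118610125 UMIs, and pairs of libraries shared 17 to 29 barcodes. Cells were clustered and named with all keratins left out, so no keratin level defined a class, and names end in "-like" because they rest on other marker genes. Levels are CPM, UMIs of a gene scaled to 1000000 UMIs, summed over the cells of 1 class in 1 library. A 3′ UMI count has no length term, although capture can differ between genes. Piezo1 itself was at 34.7, 27.7 and 15.1 CPM in epithelial cells and at 74.9, 55.9 and 43.9 in mesenchymal or vascular cells. Which exons were floxed is not stated in the sources used here, and 3′ counts from other exons check nothing.

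The start regions of 3 members are shown, because Krt5 lends its promoter to the Cre transgene, Krt10 had the highest level of any keratin in a named class and Krt24 was concentrated in bulge-like cells. Each window runs from 250 bases before to 50 after the RefSeq start on GRCm38.p6, 5′ to 3′ on the minus strand. Krt5 is at chr15:101712856-101713155, Krt10 at chr11:99389315-99389614 and Krt24 at chr11:99285213-99285512. Capitals mark TATAAA or CCAAT, read on either strand.
Krt5: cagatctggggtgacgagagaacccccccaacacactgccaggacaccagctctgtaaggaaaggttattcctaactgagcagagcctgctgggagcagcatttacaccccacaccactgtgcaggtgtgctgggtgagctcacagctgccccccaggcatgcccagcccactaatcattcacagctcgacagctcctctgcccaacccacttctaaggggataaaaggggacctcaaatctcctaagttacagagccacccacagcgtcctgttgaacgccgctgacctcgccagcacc
Krt10: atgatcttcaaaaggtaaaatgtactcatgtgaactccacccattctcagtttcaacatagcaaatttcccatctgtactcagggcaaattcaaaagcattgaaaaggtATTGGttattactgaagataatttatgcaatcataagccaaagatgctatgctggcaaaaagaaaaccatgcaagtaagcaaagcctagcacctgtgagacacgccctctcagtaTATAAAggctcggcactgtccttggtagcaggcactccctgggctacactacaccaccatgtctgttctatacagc
Krt24: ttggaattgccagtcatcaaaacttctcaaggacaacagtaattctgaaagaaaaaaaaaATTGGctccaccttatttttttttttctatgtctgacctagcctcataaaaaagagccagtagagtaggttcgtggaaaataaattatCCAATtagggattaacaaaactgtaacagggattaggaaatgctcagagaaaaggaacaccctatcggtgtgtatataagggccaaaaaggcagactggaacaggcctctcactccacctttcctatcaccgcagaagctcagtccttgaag
The Krt10 window held TATAAA at −26 from the start and CCAAT at −141 on the other strand. Krt24 had 2 matches to CCAAT and none to TATAAA, and the Krt5 window had neither. RefSeq windows were found for 36 of the 53 keratins and 22 of the 34 described by level, 37 windows in all. Krt13 had an extra window. That window and those of Krt14 and Krt7 lie wholly inside the annotated gene, not at its annotated start, and are counted here. TATAAA stood in 19 of these 37 and in 13.6% of all 32851 windows of the same length. CCAAT stood in 15 of 37 and in 37.4% of all windows, and the AP-1 motif TGANTCA in 2 of 37 and in 7.81%. Both strands were searched, and a match describes letters, not a bound site.

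Keratin RNA made up 1.97%, 2.08% and 2.54% of all UMIs of epithelial cells, 1.05 times the control at 2 weeks and 1.29 times at 3 weeks. The mix of classes differed between libraries, so these pooled ratios are not ratios within a class. Granular-like cells were 70, 207 and 438 of 3358, 8453 and 6910 epithelial cells. The keratin share was highest in these cells, the last living layer of the epidermis, at 3.50%, 3.44% and 3.91%. Interfollicular basal-like cells had 2.21%, 2.31% and 2.63% and bulge-like cells 1.70%, 1.80% and 1.93%. Sebaceous gland-like cells had 0.599% in control and 0.576% at 3 weeks, and the 2-week library held 19 of these cells, too few to describe by level. Gamma-delta T-like cells, which are not epithelial, gave 0.0416%, 0.107% and 0.157%. Such counts in a non-epithelial cell serve below as the background of keratin RNA from other cells, and it differed between classes and libraries. It was higher in both knockout libraries than in control in gamma-delta T-like cells and in blood endothelial-like cells (0.0658%, 0.141% and 0.171%), lower in both in Schwann-like cells (0.475%, 0.343% and 0.305%), and at 0.0926%, 0.0914% and 0.135% in dermal papilla or sheath-like cells. Langerhans-like cells had 0.266%, 0.512% and 1.18%, melanocyte-like cells 0.559%, 0.804% and 0.982%, and fibroblast-like cells 0.0598%, 0.262% and 0.227%. Pericyte or vascular smooth muscle-like cells had 0.288%, 0.434% and 0.717%. Gamma-delta T-like cells, used most often below, were lower in each library than Langerhans-like, melanocyte-like, fibroblast-like and pericyte or vascular smooth muscle-like cells. They give a low background next to those classes, but were above dermal papilla or sheath-like cells in both knockout libraries. The part of background in the differences between libraries was not tested beyond the values given beside them.

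Type I UMIs exceeded type II UMIs in each class compared here. The ratio of type I to type II was 2.70, 2.21 and 2.49 for basal-like, 2.81, 2.92 and 2.97 for bulge-like and 1.97, 2.07 and 2.01 for upper follicle-like cells. It was lower in spinous-like cells, at 1.78, 1.58 and 1.52, and in granular-like cells, at 1.48, 1.28 and 1.21. In both of these suprabasal classes the control had the highest ratio of the 3 libraries. The same held for basal-like cells and for cycling keratinocyte-like cells, at 2.43, 2.17 and 2.26. In bulge-like and upper follicle-like cells the control had the lowest ratio.

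A few members carried nearly all of this RNA. The 5 most abundant keratins held 97.5% of the keratin UMIs of basal-like cells in each library, 94.7%, 95.3% and 94.6% in bulge-like cells and 82.9%, 85.1% and 85.1% in spinous-like cells. The leading member was Krt14 in basal-like, Krt10 in spinous-like and granular-like, and Krt15 in bulge-like cells of all 3 libraries. Of 16 keratins with at least 1000 UMIs, 13 were highest in the same epithelial class in all 3 libraries, against 7 of the 18 with fewer.

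**Figure D1:**
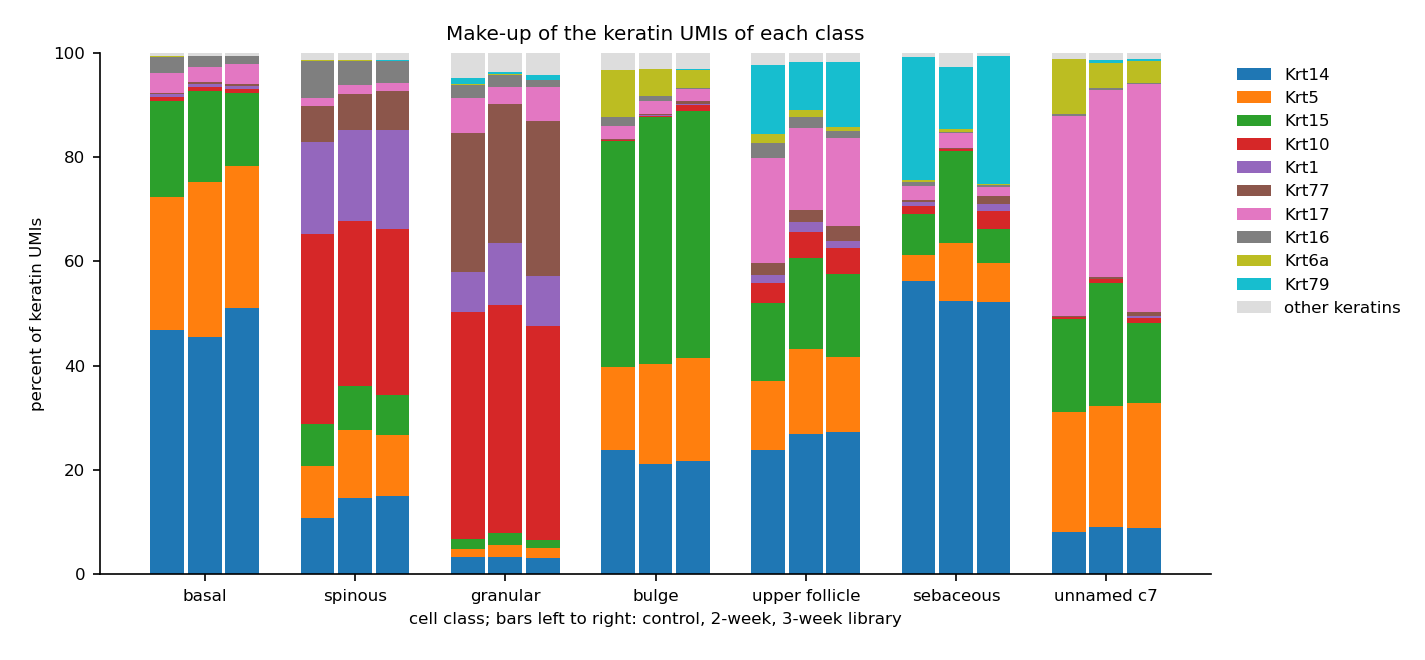
Share of keratin UMIs (percent, vertical axis) held by 10 members, with other keratins in grey, in 7 cell classes, with 1 stacked bar for each of the 3 libraries. Krt14 held 45.6% to 51.0% in basal-like cells and Krt15 43.2% to 47.4% in bulge-like cells, and the 2-week sebaceous bar rests on 19 cells.

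The basal pair led the basal layer. Krt14, the type I basal keratin, was at 10352, 10514 and 13431 CPM in basal-like cells, and Krt5, its type II partner, at 5659, 6853 and 7166. Cycling keratinocyte-like cells had 8848, 9236 and 11617 CPM of Krt14. In cells thinned to 2500 UMIs each, so that depth was equal, Krt5 was found in all basal-like cells and Krt14 in at least 99.7%. Thinning left out shallower cells, 14, 173 and 100 of the bulge-like, 6, 21 and 13 of the basal-like and 6, 21 and 25 of the gamma-delta T-like cells. Both genes together were found in 95.9%, 96.6% and 98.2% of thinned cells of bulge-like cluster c0 and 95.8%, 93.8% and 96.6% of upper follicle-like cluster c1, close to basal-like cells, but in 49.7% to 62.3% of spinous-like cells and 35.2%, 43.9% and 37.7% of the Defb6 and Klk10 cluster of upper follicle-like cells (c6). Krt5 alone was found in 40.5%, 49.3% and 42.1% of c6 cells (60.5%, 66.6% and 67.3% unthinned). Gamma-delta T-like cells gave 4.04%, 21.1% and 29.2% (10.5%, 31.5% and 41.9% unthinned), below c6 in each library.

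Krt15, a type I keratin of basal and bulge cells, was at 7360.2, 8535 and 9157 CPM in bulge-like and at 4047, 3997 and 3698 in basal-like cells, so the bulge was higher in all 3 libraries. Within the bulge, the Postn and Lgr5 cluster (c0) had 6914, 7989 and 7842, the Fgf18 and Myoc cluster (c12) 9367, 10958 and 13928 and the Angptl7 cluster (c13) 11363, 10813 and 9835. Cluster c0 was the lowest of the 3 in every library.

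The bulge-like clusters differed widely in Krt14. Cluster c0 had 4683, 4444 and 5184 CPM of Krt14, c13 had 1998, 2246 and 3776 and c12 had 82.4, 246 and 531. Krt5 did not share this pattern, with 2843, 3577 and 3888 CPM in c12 and 2648, 3357 and 3698 in c0. The type I RNA of c12 was mostly Krt15, which held 64.1%, 65.0% and 68.4% of its keratin UMIs. After thinning, a Krt14 UMI was found in 13.6%, 19.9% and 32.3% of c12 cells (34.8%, 31.2% and 56.7% unthinned), while Krt5 and Krt15 were found in all of them. The thinned share was 19.2%, 26.8% and 39.3% in gamma-delta T-like cells (35.2%, 31.5% and 53.7% unthinned) and 13.04%, 18.5% and 36.0% in blood endothelial-like cells (30.7%, 35.1% and 59.6% unthinned). The c12 share lay below the gamma-delta T-like share in every library, and above the blood endothelial-like share in control and at 2 weeks. By level, gamma-delta T-like cells had 94.7, 277 and 325 CPM and blood endothelial-like cells 181, 175 and 406, and c12 exceeded both at 3 weeks only. Krt14 in c12 was thus not separable from background in control and at 2 weeks, and at 3 weeks its level, but not its share of cells, was above both classes. Other non-epithelial classes were higher than c12 at 3 weeks. Krt14 held 32.4% of keratin UMIs in fibroblast-like and 38.7% in melanocyte-like cells, where keratins were 0.227% and 0.982% of all UMIs. In c12 it held 2.61%, with keratins at 2.04%. The 3-week level is therefore not separable from background in those classes. Cluster c12 held 66, 394 and 164 cells with median depths of 7300.5, 5228 and 5174.5 UMIs, and gamma-delta T-like cells had medians of 4164, 3319.5 and 3654.

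**Figure D2:**
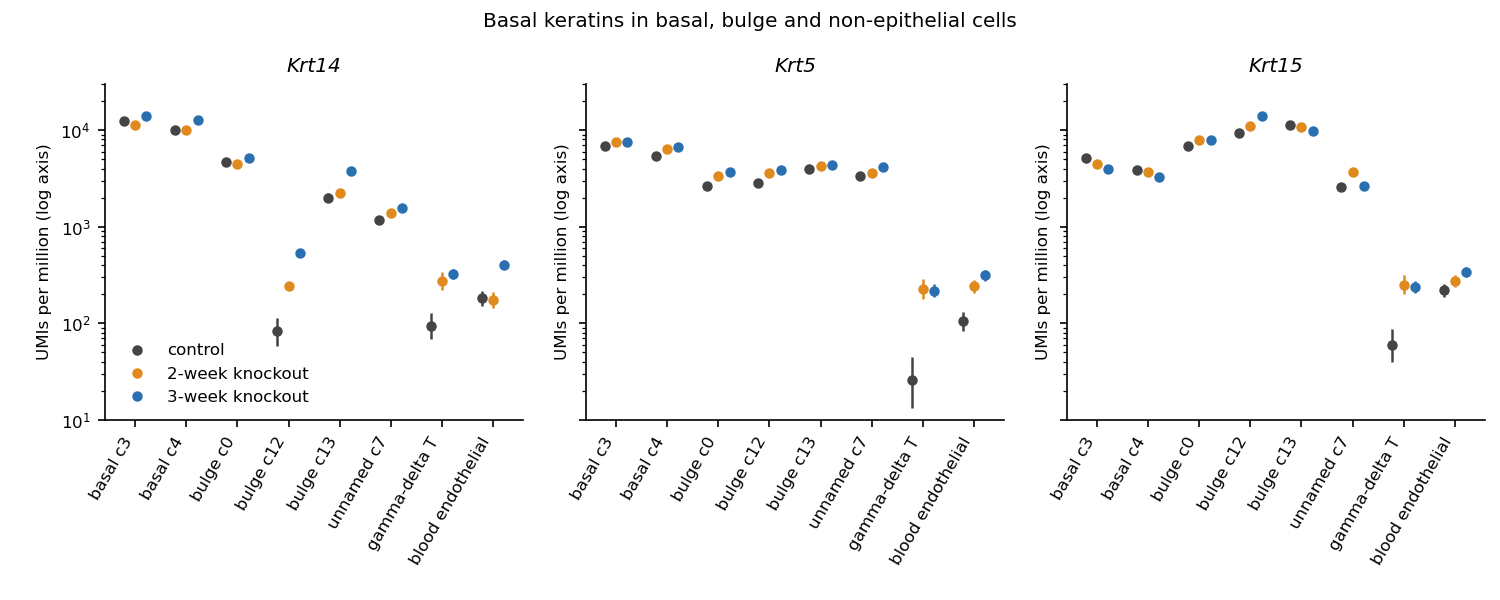
Levels of Krt14, Krt5 and Krt15 (CPM, log axis) in basal-like, bulge-like and c7 clusters and 2 non-epithelial classes, with points for the 3 libraries and bars for the exact 95% counting interval. In cluster c12 Krt14 lies at 82.4, 246 and 531 while Krt5 lies at 2843, 3577 and 3888.

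The suprabasal members differed in where they peaked. Krt10, the type I suprabasal keratin, was at 8678, 7809.9 and 8595 CPM in spinous-like and at 15213, 15044 and 15992 in granular-like cells. Krt1, its type II partner, was higher in spinous-like cells, at 4226, 4273 and 5086, than in granular-like cells, at 2698, 4136 and 3812. Krt77, another type II keratin, had the opposite order, with 1610.0, 1724 and 2029 CPM in spinous-like and 9353, 9129.6 and 11589.6 in granular-like cells. In every library Krt1 exceeded Krt77 in spinous-like cells and Krt77 exceeded Krt1 in granular-like cells.

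Krt10 and Krt77 in the bulge did not exceed the background of gamma-delta T-like cells at equal depth. In bulge-like cells a Krt10 UMI was found in 9.82%, 13.7% and 42.1% of thinned cells (29.4%, 29.0% and 67.5% unthinned), and in gamma-delta T-like cells in 16.2%, 15.5% and 50.6% (22.9%, 27.2% and 66.0% unthinned). For Krt77 the thinned shares were 5.50%, 8.43% and 29.0% (16.1%, 19.2% and 52.1% unthinned) and 9.09%, 11.3% and 39.9% (12.4%, 21.7% and 52.2% unthinned). The thinned bulge-like share was the lower one for both genes in each library, so neither is read as expression there. Median depth of bulge-like cells was 8103, 6512.5 and 5548 UMIs.

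Krt80, Krt23 and Krt78, of differentiating keratinocytes, were highest in granular-like cells of all 3 libraries. Krt80 was at 844, 582 and 826 CPM there and at 264, 323 and 309.8 in bulge-like cluster c12. Krt23 was at 605, 403 and 561 and Krt78 at 244, 214 and 228. Krt2, a type II keratin of upper suprabasal cells that is abundant in ear, tail and sole skin, reached 9.66, 13.4 and 8.10 CPM. Granular-like cells numbered 70, 207 and 438, with median depths of 57412, 38968 and 27139.5 UMIs.

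In the follicle, Krt24 and Krt79 marked separate places. Krt24, a type I keratin, was at 383, 373 and 395 CPM in bulge-like cells and at most 46.7 in the next epithelial class or unnamed cluster of any library. A Krt24 UMI was found in 42.8%, 44.4% and 43.9% of thinned bulge-like cells (61.6%, 60.2% and 54.4% unthinned), against at most 0.562% of thinned gamma-delta T-like cells (at most 1.90% unthinned). Within the bulge it was held by c0, at 419, 419 and 467 CPM, and c13, at 635, 389 and 503, and was low in c12, at 27.5, 17.7 and 31.0. Krt75, a type II keratin of the companion layer, was instead highest in c12, at 35.9, 34.9 and 28.7 CPM, against 7.54, 8.28 and 7.47 in c0.

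Krt79, a type II keratin of the upper follicle, was at 1920.0, 1382 and 2211 CPM in upper follicle-like cells. It lay mostly in c6, with 5277, 3970.3 and 6236, against 136, 221 and 223 in the Sostdc1 and Gata6 cluster (c1). Sebaceous gland-like cells had 1406 in control and 1415 at 3 weeks. Krt17 was also high in c6, at 5709, 4763 and 6949 CPM, and in an unnamed epithelial cluster led by Pthlh, Sema3e and Bdnf (c7), at 5563, 5551 and 7557. It held 38.3%, 35.9% and 43.7% of the keratin UMIs of c7, the largest share of the 10 members plotted. Krt14 and Krt17 transcripts share 90 to 97 bases at 97.8% to 97.9% identity within their last 400 bases, so the split of counts between them is uncertain to that extent.

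**Figure D3:**
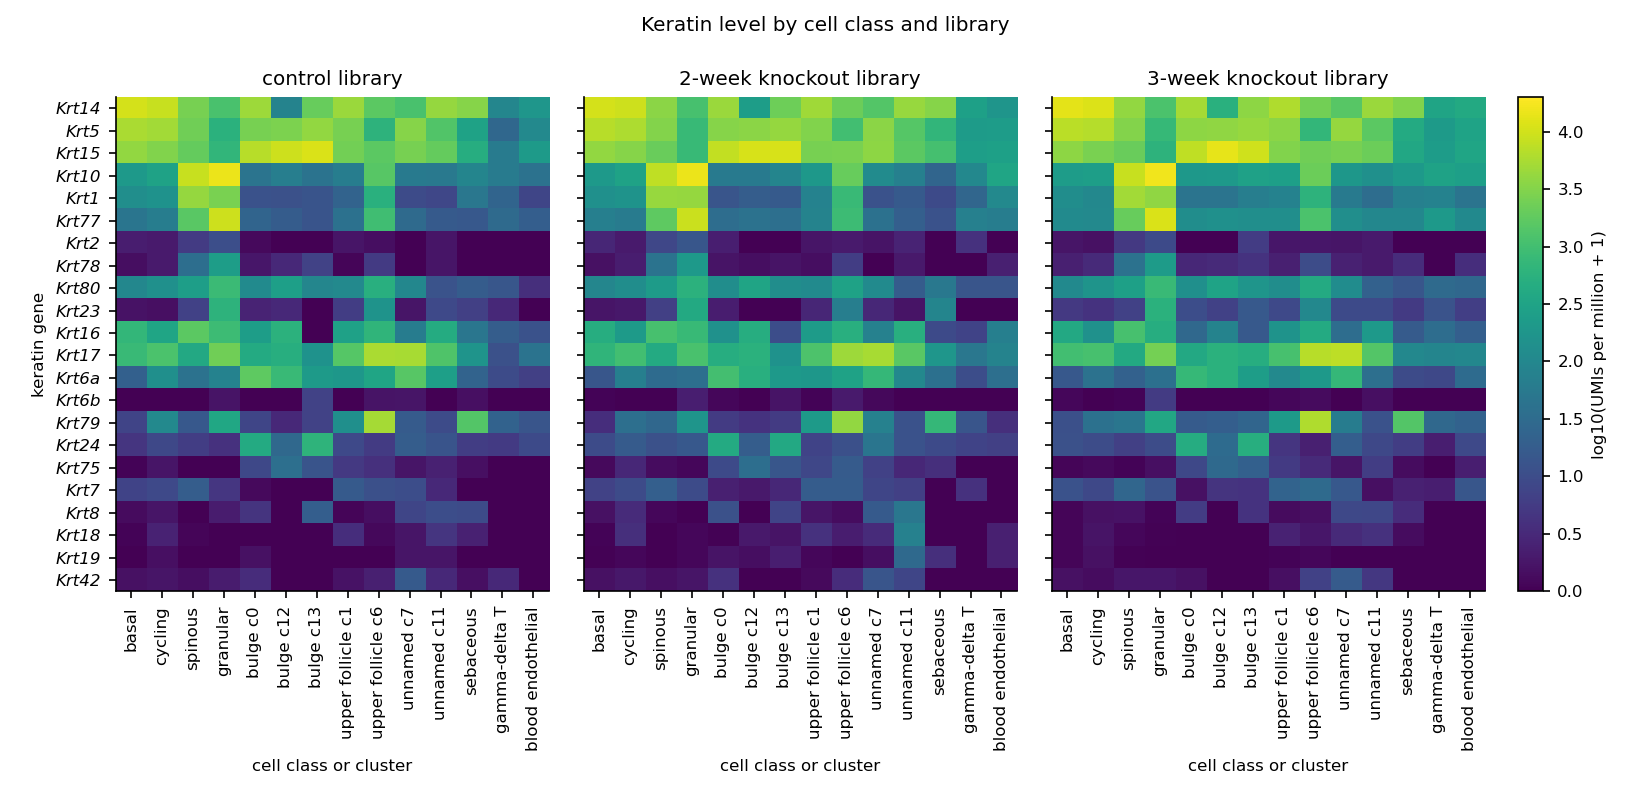
Level of 22 keratins (log10 of CPM plus 1, colour) in 14 cell classes or clusters, with 1 panel for each of the 3 libraries. In all 3 panels Krt10 and Krt77 are highest in granular-like cells, Krt79 in cluster c6 and Krt24 in c0 and c13, and Krt14 is low in c12 (82.4, 246 and 531 CPM).

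In the comparison of libraries a keratin was ranked in a class if it had 50 or more UMIs in the pair of libraries, reached 50 CPM in either, and stood at no less than 1/5 of its level in its highest class. Differences of 1.5-fold or more were counted, a rule of size and not a test. Both comparisons share the control library. In basal-like cells 5 keratins were ranked. At 2 weeks 0 were past 1.5-fold, where 3.02% of all ranked genes were higher and 5.74% lower. At 3 weeks 0 were higher and 1 was lower, where 4.57% of all ranked genes were higher and 15% lower. Suprabasal-like cells (spinous-like and granular-like together) had 10 and 9 ranked keratins. There 0 were past 1.5-fold at 2 weeks (2.29% of all ranked genes higher, 7.26% lower), and 0 were higher and 1 lower at 3 weeks (3.75% and 11.5%). Upper follicle-like cells had 7 ranked keratins, with 0 past 1.5-fold at 2 weeks (3.56% and 4.04%) and 0 higher and 1 lower at 3 weeks (3.72% and 12.8%). Bulge-like cells had 5 and 6, with 0 higher and 1 lower at 2 weeks (3.14% and 5.97%) and again at 3 weeks (6.66% and 16.3%). With 5 to 10 ranked members, a count of 1 does not set the family apart from all ranked genes. The members were Krt16 in basal-like, suprabasal-like and upper follicle-like cells at 3 weeks, and Krt6a in bulge-like cells at both times.

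**Figure D4:**
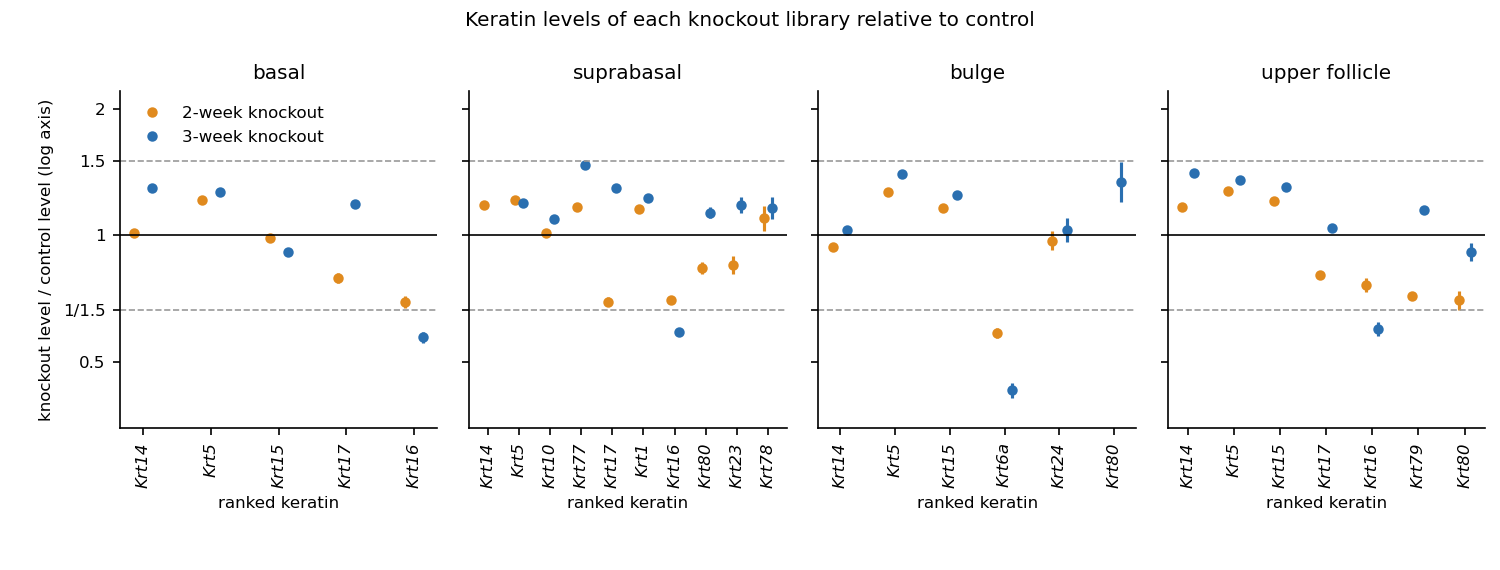
Level in each knockout library divided by the control level (log axis) for the ranked keratins of 4 cell classes, with exact 95% counting intervals and dashed lines at 1.5-fold in either direction. Krt16 at 3 weeks in 3 classes (0.573, 0.590 and 0.599) and Krt6a in bulge-like cells lie below the lower line, and 0 ranked keratins lie above the upper one.

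Krt16, a type I wound keratin, was at 1670.0, 1133 and 1127 CPM in spinous-like cells, its highest named epithelial class. The suprabasal-like class as a whole had 1375, 965 and 811 CPM, which is 0.702 times control at 2 weeks (0.687 to 0.717) and 0.590 times at 3 weeks (0.579 to 0.602). Within the layers it was at 0.678 and 0.675 times control in spinous-like and 0.879 and 0.538 times in granular-like cells, so it was lower in both at both times but past 1.5-fold only in granular-like cells at 3 weeks. In upper follicle-like cells it was at 414, 316 and 248, or 0.762 and 0.599 times control. Both clusters of that class were lower than control at both times, c1 at 283, 224 and 161 and c6 at 660.4, 519.7 and 425. Cycling keratinocyte-like cells had 335, 218 and 150.2 CPM. Gm11597 matched the Krt16 3′ end at 96.0% over 126 bases, so a part of the counts could be split.

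In basal-like cells Krt16 was at 690.1, 479.5 and 396 CPM, or 0.695 and 0.573 times control (0.556 to 0.591 at 3 weeks). Different clusters held most of this class in the libraries. The Epgn, Tslp and Itga2 cluster (c4) held 576, 775 and 637 cells, and the Smoc2 and Wnt4 cluster (c3) held 156, 650 and 1186. Within c4 Krt16 was at 804, 677 and 668 CPM, 0.843 and 0.831 times control. Within c3 it was at 135, 193 and 226, 1.43 and 1.68 times control, so the clusters differed from control in opposite directions. With both clusters weighed equally the log2 ratio of the class was −0.07 at 3 weeks, against −0.80 over all cells.

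In bulge-like cells Krt16 was not ranked, because it lay under 1/5 of the spinous-like level. It was at 277, 176 and 35.4 CPM, 0.636 and 0.128 times control (0.595 to 0.680 and 0.109 to 0.150). Cluster c0 had 249 CPM in control and 151 at 2 weeks, and its 3-week level was 0.108 times control (0.0866 to 0.134). Cluster c12 had 581, 478 and 83.8, while c13, with 29 control cells, had 0, 9.28 and 14.6. Both c0 and c12 were lowest at 3 weeks. Gamma-delta T-like cells had 17.2, 6.30 and 33.4 and blood endothelial-like cells 11.2, 70.6 and 18.8. In thinned cells 14.3%, 11.3% and 5.41% of bulge-like cells had a Krt16 UMI (20.7%, 15.2% and 9.24% unthinned), against 3.03%, 1.41% and 7.30% of gamma-delta T-like cells (7.62%, 1.09% and 8.37% unthinned). The thinned bulge-like share was above the gamma-delta T-like share in control and at 2 weeks and below it at 3 weeks. Not every non-epithelial class was this low. In control Schwann-like cells Krt16 held 22.1% of keratin UMIs, themselves 0.475% of all UMIs. In control bulge-like cells it held 1.63% of keratin UMIs, themselves 1.70% of all UMIs. The control level in the bulge is thus not shown to exceed background in every class.

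Krt6a, a type II wound keratin that normal follicles also make, was at 1559, 916 and 669 CPM in bulge-like cells. This was 0.587 times control at 2 weeks (0.571 to 0.604) and 0.429 times at 3 weeks (0.412 to 0.448). Cluster c0 had 1719, 1038 and 773 CPM and c12 had 805, 518 and 558, with ratios to control of 0.604 and 0.449 and of 0.643 and 0.692. Cluster c13 did not share the difference, with 216, 203 and 242 CPM. Unnamed cluster c7 had 1527, 732 and 725, and an unnamed cluster led by Ccer2 and Nppc (c11) had 263, 98.8 and 36.6. The thinned share of bulge-like cells with Krt6a was 77.8%, 63.2% and 54.6% (88.7%, 75.8% and 66.7% unthinned), far above the 3.03%, 1.41% and 2.25% of gamma-delta T-like cells (3.81%, 3.26% and 2.96% unthinned). Krt6b, a close relative, had 142 UMIs in all, of which 38 came from 1 granular-like cell of the 3-week library.

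**Figure D5:**
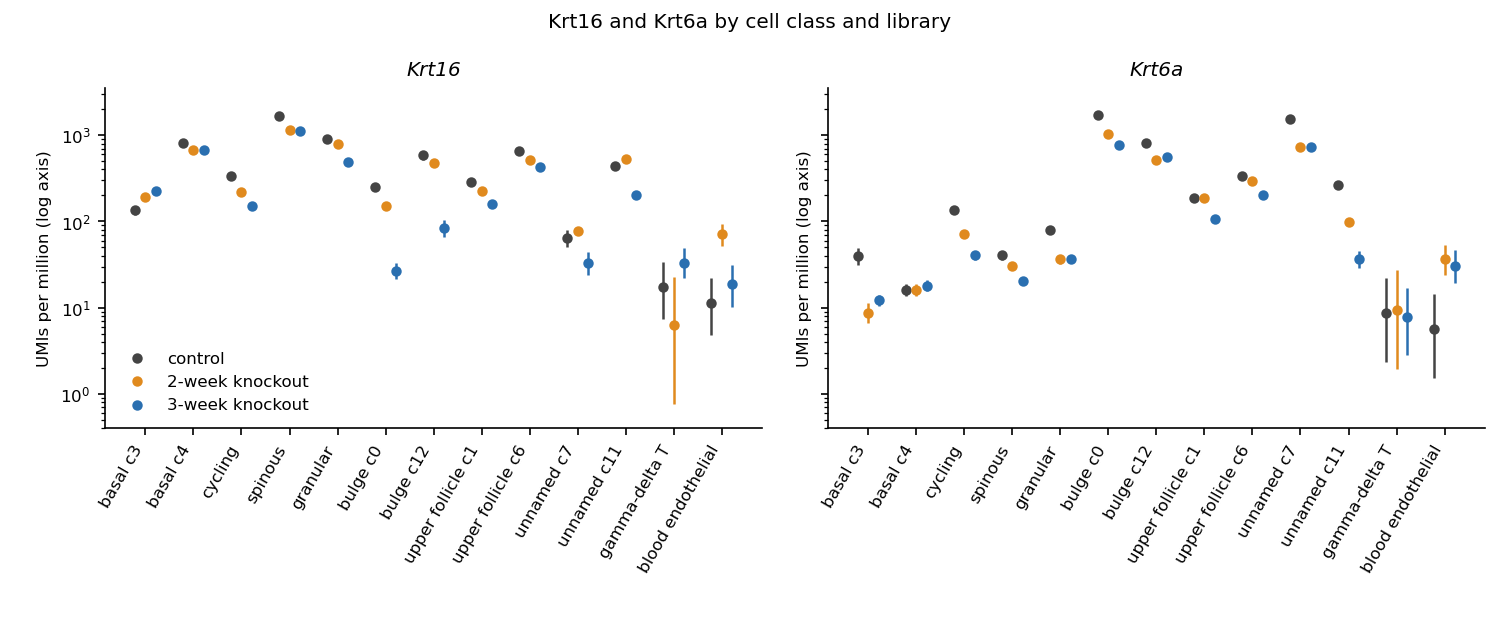
Levels of Krt16 and Krt6a (CPM, log axis) in 13 cell classes or clusters, with points for the 3 libraries and bars for the exact 95% counting interval. Krt16 is lowest at 3 weeks in bulge clusters c0 and c12 (83.8 in c12) and above control in basal cluster c3, and Krt6a is below control at both times in c0, c12, c7 and c11.

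Krt5 was above control in all 4 compared classes at both times, by less than 1.5-fold each time before centring. Its ratio at 2 and 3 weeks was 1.21 and 1.27 in basal-like, 1.27 and 1.40 in bulge-like, 1.21 and 1.19 in suprabasal-like and 1.27 and 1.36 in upper follicle-like cells. Krt5 in gamma-delta T-like cells moved the same way, at 25.8, 227 and 217 CPM, beside 2719.8, 3447 and 3809 in bulge-like and 1664, 2017 and 1982 in suprabasal-like cells. Krt14 had ratios of 1.02 and 1.30 for basal-like, 0.938 and 1.03 for bulge-like and 1.17 and 1.41 for upper follicle-like cells. In basal cluster c3 alone Krt14 was at 12315, 11194 and 13958 CPM, below control at 2 weeks.

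The median log2 ratio of all ranked genes at 3 weeks was −0.12 in basal-like, −0.13 in bulge-like, −0.09 in suprabasal-like and −0.14 in upper follicle-like cells. Relative to these medians, 1 of 6 keratins passed 1.5-fold on the higher side in bulge-like cells, Krt5 at 0.62 on the log2 scale, where 11.4% of all ranked genes did. In suprabasal-like cells it was 1 of 9, Krt77 at 0.65, where 5.78% did, and the different mix of layers described below moved with that value. In upper follicle-like cells it was 2 of 7, Krt14 at 0.64 and Krt5 at 0.59, where 7.78% did. Relative to the 2-week medians, Krt15 in basal-like cells stood at 0.02 and Krt24 in bulge-like cells at 0.04, both on the other side of 0 from their uncentred values.

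Krt15 stood at 1.16 and 1.24 times control in bulge-like cells and at 0.988 and 0.914 times in basal-like cells. In the summed suprabasal-like class Krt10 was at 1.02 and 1.09, Krt1 at 1.16 and 1.23 and Krt77 at 1.17 and 1.47 times control. The mix of that class differed, with 70, 207 and 438 granular-like cells among 433, 873 and 1421, and the layers taken alone gave other values. Krt10 was at 0.900 and 0.990 times control in spinous-like and 0.989 and 1.05 times in granular-like cells. Krt77 was at 1.07 and 1.26 times in spinous-like and 0.976 and 1.24 times in granular-like cells, so neither layer alone reached the 3-week ratio of the summed class. Krt1 was at 1.53 and 1.41 times control in granular-like cells, and in spinous-like cells its 2-week interval (0.996 to 1.03) included 1. Krt77 in gamma-delta T-like cells was at 30.1, 72.4 and 201 CPM, beside 4575, 5352 and 6722 in suprabasal-like cells. Krt17 over all cells was at 0.696 and 1.29 times control in suprabasal-like and 0.791 and 1.19 times in basal-like cells. Its 2-week direction was not shared by the parts of these classes: it was at 1.08 times control in spinous-like and 0.503 in granular-like cells, and at 1.46 in basal cluster c3 and 0.838 in c4. At 3 weeks Krt17 was above control in both basal clusters, at 2.36 and 1.43 times. Krt79 in upper follicle-like cells was at 0.720 and 1.15 times control, with 0.752 and 1.18 in c6 and 1.62 and 1.64 in c1. Krt24 in bulge-like cells was at 0.973 and 1.03 times control, with intervals of 0.921 to 1.03 and 0.964 to 1.10, which both include 1.

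The suprabasal layers were also taken apart. Spinous-like cells had 7 ranked keratins, with 0 past 1.5-fold at 2 weeks, where 2.71% of all ranked genes were higher and 7.33% lower. At 3 weeks 1 was higher and 0 lower, where 3.38% and 13.7% of all ranked genes were: Krt14, at 2569, 3593 and 4019 CPM or 1.56 times control (1.54 to 1.59). Granular-like cells had 8 ranked keratins. At 2 weeks 1 was higher (2.78% of all ranked genes) and 2 lower (7.65%): Krt1 at 1.53 times control, Krt17 at 0.503 and Krt23 at 0.666. At 3 weeks 0 were higher (3.22%) and 1 lower (7%), Krt16 at 0.538 times, while Krt17 stood at 1.10 and Krt23 at 0.927 times control. Cycling keratinocyte-like cells had 5, with 0 higher at either time (2.89% and 4.83% of all ranked genes) and 1 lower at both (4.69% and 10.3%), Krt16 at 0.650 and 0.449 times control.

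Over all epithelial cells together, whose mix of classes differed between libraries, the family looked different. At 2 weeks 1 of 9 ranked keratins was higher (4.31% of all ranked genes), Krt24 at 2.45 times control, and 1 was lower (5.74%), Krt79 at 0.481 times. At 3 weeks 3 of 10 were higher (4.34%) and 0 lower (11.9%): Krt77 at 2.08, Krt1 at 1.74 and Krt10 at 1.58 times control. Bulge-like cells numbered 523, 2948 and 877 of 3358, 8453 and 6910 epithelial cells and granular-like cells 70, 207 and 438. Within bulge-like cells alone the Krt24 intervals included 1, as given above.

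Keratins of simple epithelia were rare, and 1 cell stood apart. Krt8 and Krt18, the pair of single-layered epithelia and of Merkel cells, and Krt19 had 671, 397 and 154 UMIs over all barcodes. A single cell of the 2-week library, in unnamed cluster c11, held 225 of the 308 Krt18 UMIs of that library's kept cells, 120 of 462 for Krt8 and 86 of 112 for Krt19. It had 34187 UMIs and 5334 genes, with 16 UMIs of Krt7, 12 of Krt4 and 19 of Krt79, and 0 of Krt14, Krt10 and Krt17. In bulge-like cells Krt8 was at 3.56, 8.99 and 3.82 CPM. Krt7, another simple-epithelium member, was at 17.4, 19.3 and 25.4 CPM in spinous-like cells.

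Keratins of the inner root sheath and the hair shaft, which are made in growing follicles, were close to 0. Of the inner root sheath members, Krt25, Krt27, Krt28 and Krt71 had 268, 178, 68 and 141 UMIs in all. Krt25 was at 14.1, 2.14 and 3.77 CPM in cycling keratinocyte-like cells, and 1 of these in control held 22 of the 131 Krt25 UMIs of that library's kept cells. Krt27 was at 5.03, 8.83 and 7.11 CPM in cluster c11 and Krt71 at 0.948, 2.41 and 2.42 in bulge-like cells. Krt28 had 8 UMIs in the 36 control cells and 9 in the 53 3-week cells of a sebaceous gland-like cluster (c26). Krt32, a hair cuticle keratin, was spread over epithelial cells at 13.5, 13.7 and 14.4 CPM. Krt33a, a hair shaft keratin, was among the rarest described.

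Krt83, a hair shaft keratin, had its higher levels outside the epithelium. It was at 0.144, 0.116 and 0.104 CPM in epithelial cells, against 38.8, 12.6 and 10.3 in gamma-delta T-like cells and 61.8, 168 and 80.2 in an unnamed immune cluster led by Icos, Cxcr6 and Ccl5 (c22). These levels rest on 18, 4 and 8 UMIs and on 44, 10 and 29 UMIs, and c22 held 112, 8 and 84 cells. Langerhans-like cells had 0 Krt83 UMIs in each library, which allows up to 4.25, 7.25 and 1.70 CPM. The epithelial level was the lower one in each library.

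Of the other rare members, Krt42, a type I keratin, was highest in cluster c7 in every library, at 15.4, 12.7 and 15.9 CPM, and Krt222 in bulge-like cells, at 1.42, 1.64 and 1.61. Krt4 and Krt13, the pair of mucosal epithelia, had 219 and 86 UMIs in all, and Krt9, of palm and sole skin, had 60.

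Genes whose proteins bind keratin filaments or anchor them at junctions were taken as a list of 18 in the files. In basal-like cells 13 were ranked and 0 were past 1.5-fold at either time, where 5.74% and 15% of all ranked genes were lower, with median log2 ratios of −0.06 and −0.24 against −0.04 and −0.12 for all ranked genes. Of 15 ranked in suprabasal-like cells 0 were past 1.5-fold, where 7.26% and 11.5% of all ranked genes were lower. In bulge-like cells 0 were higher, and 1 of 11 was lower at 2 weeks and 2 of 9 at 3 weeks, where 5.97% and 16.3% of all ranked genes were. Fam83h, which codes for a keratin-binding protein, was at 62.4, 38.7 and 36.8 CPM there, and Dst, which codes for the linker dystonin, at 2231, 1761 and 1392. Dsp, the desmosomal plaque gene desmoplakin, was at 2389, 1947 and 1647 and was not past 1.5-fold. The list's median log2 ratio in bulge-like cells was −0.27 and −0.46, against −0.08 and −0.13 for all ranked genes. In upper follicle-like cells 0 of 14 and 1 of 13 were lower, Fam83h at 3 weeks, against 4.04% and 12.8% of all ranked genes. In cycling keratinocyte-like cells 0 of 12 and 2 of 11 were, Fam83h and Eppk1 at 3 weeks, against 4.69% and 10.3%. Among 16 other intermediate filament genes, Lmna, which codes for nuclear lamins, was the 1 ranked in these compared classes other than cycling cells, and it was not past 1.5-fold.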

How the data were processed

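Raw UMI counts per gene and cell barcode were deposited by the authors, 1 matrix per library, from 10x 3′ libraries of back skin. Cell Ranger 6.1.2 and mm10 come from the submitters' processing notes. No source used here states which annotation release was counted or whether introns were included.

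The 5621, 11144 and 11186 barcodes of the control, 2-week and 3-week libraries were filtered to at least 500 genes and under 15% mitochondrial UMIs. Scrublet in scanpy 1.11.5 then removed 110, 284 and 394 doublets (2.19%, 2.88% and 3.94%). With keratins left out, 2000 variable genes, 30 principal components, 15 neighbours and Leiden clustering (leidenalg 0.10.2, resolution 1) gave the clusters. A cluster was named where 3 markers were detected, its score led the next class by 0.25 and 1 marker was among its 10 leading genes. The naming rules, the thinning depth of 2500 UMIs and the minimum of 50 cells per library in the closing section were set after clusters or values were seen.

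UMIs were summed per class and library and scaled to CPM, with exact Poisson intervals and exact conditional intervals for ratios (scipy 1.17.1). The ratio calculation was run on simulated Poisson counts with planted 2-fold changes. Those counts hold no variation between cells, animals or libraries, so the run checks the calculation only. Every keratin with at least 50 UMIs is named, as are all past 1.5-fold in a compared class. Members and lists were chosen with earlier results of these data known. Levels within single clusters and without the top cell were added after seeing the data. Transcript ends were compared over their last 400 bases.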

Additional observations from a re-analysis of the deposited data

Results flagged for a closer look

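The clusters c7 and c11 had no cell class name and so entered none of the counts by class. Their keratins were screened, on the higher side only, for levels at least 1.5-fold above control. A level also needed 50 UMIs, a ratio interval above 1 and a value well above that of gamma-delta T-like cells. In the 2-week library 6 levels passed, and other keratins of these clusters also differed from control. In cluster c7, led by Pthlh, Sema3e and Bdnf, Krt79, the upper follicle keratin, was at 76.9 CPM against 16.1 in control. It was found in 41 of 654 cells, and without the cell that held the most it was at 58.8. Krt79 held 0.111%, 0.498% and 0.359% of the keratin UMIs of c7 in the 3 libraries. The 3-week cells were thus also above control, though their level did not pass the screen. Krt24, the bulge keratin, was at 46.7 CPM in c7 against 17.7 in control, and at 43.0 without its top cell. Gamma-delta T-like cells of that library had 12.6 CPM of Krt79 and 6.30 of Krt24. Krt8, a simple-epithelium keratin, was at 15.3 CPM in c7 against 6.91, and at 14.0 without its top cell.

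In cluster c11, led by Ccer2, Nppc and Cldn10, Krt8 was at 48.7 CPM against 9.34 in control, Krt18 at 75.6 against 3.59 and Krt19 at 28.8 against 0.719. These 3 levels came mostly from 1 cell. Without the cell that held the most of each, Krt8 was at 9.59 CPM, Krt18 at 1.99 and Krt19 at 0.662. Levels without the top cell were added after seeing the data.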

How the results depend on the processing

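No paired analysis was possible because each group was 1 library, and no replicate could be left out. Of the 5 keratin values past 1.5-fold in the 4 compared classes, 5 stayed past it under each of 3 other clusterings (keratins kept, resolution 2 or 0.5), with doublets kept, with cells of at least 1000 genes and under 10% mitochondrial UMIs, with CPM over UMIs that are not keratin, with centring on the median of the ranked genes and with thinning to 2500 UMIs. With clusters weighed equally 4 of 5 stayed: Krt16 in basal-like cells at 3 weeks was lost. No ratio of a called keratin reversed. Upper follicle-like cells were a smaller set at resolution 0.5 and under the stricter cell filter, as given below. The cause of the moved counts below was not tested.

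Counts of keratins past 1.5-fold that changed were these. At 2-fold, the lower counts at 3 weeks in basal-like, suprabasal-like and upper follicle-like cells and at 2 weeks in bulge-like cells fell from 1 to 0. Centring, which shifted 3-week ratios by up to 0.14 on the log2 scale (median −0.14 in upper follicle-like, −0.13 in bulge-like and −0.12 in basal-like cells), made the higher counts at 3 weeks 1 in bulge-like (Krt5), 1 in suprabasal-like (Krt77) and 2 in upper follicle-like cells (Krt14 and Krt5), from 0. With no rule on the highest class, the higher counts were 1 in basal-like and 1 in upper follicle-like cells at both times and 2 in bulge-like cells at 3 weeks, and the lower counts were 2 in bulge-like cells at both times, 1 and 2 in suprabasal-like and 1 and 3 in upper follicle-like cells. With minimums of 20 UMIs and 10 CPM, the higher count was 1 in suprabasal-like cells at both times and 1 at 3 weeks in basal-like and upper follicle-like cells. With keratins kept in the clustering or doublets kept, the lower count at 2 weeks was 1 in basal-like and 1 in upper follicle-like cells. At resolution 2 it was 1 in upper follicle-like cells, and at resolution 0.5 that class had 1 higher and 2 lower at 2 weeks and 3 lower at 3 weeks. At resolution 0.5 the class held only the Defb6 and Klk10 cluster, with 325, 333 and 443 cells. The Sostdc1 and Gata6 cluster, with 728, 1293 and 1195 cells, had no name there, so a different set of cells was counted. Under the stricter cell filter upper follicle-like cells had 1 higher and 3 lower at 2 weeks and 2 higher at 3 weeks. That class then lacked a cluster led by Fst and Tm4sf1, with 544, 559 and 539 cells, which had no name. Under the same filter suprabasal-like cells had 1 lower at 2 weeks. The ratio of the epithelial keratin share at 2 weeks was 1.05 (1.048 before rounding, 1.054 in the report's setting). With clusters weighed equally, basal-like cells at 3 weeks had 1 higher (Krt17) and 0 lower, bulge-like cells at 3 weeks 2 lower and suprabasal-like cells at 2 weeks 1 lower. Thinned, suprabasal-like cells had 2 higher at 3 weeks, Krt77 and Krt23.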
